A study of Rattus norvegicus with 18 samples.

Results

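The elastic fibre and microfibril genes are 10 genes chosen by name, Eln, Fbn1, Fbln1, Fbln2, Fbln5, Efemp2, Mfap4, Mfap5, Emilin1 and Ltbp2, out of the 30957 in the deposited table of a rat kidney obstruction study. Each name had 1 row in the table, 9 of the 10 were counted at least once over the 18 libraries, and 8 had enough counts to be tested. The study tied the left ureter of rats, a model called unilateral ureteral obstruction, and profiled poly(A) RNA of the renal parenchyma. Every library is labelled as coming from a ligated kidney: 5 libraries after 1 day of ligation, 5 after 3 days, 5 after 7 days and 3 labelled 14 days. A sham group named in the design was not analysed here, so the day 1 libraries are the earliest reference and not an unobstructed one. The labels give no strain, sex or age, and nothing in them says that the libraries came from different animals. The p-values therefore measure the spread between libraries, part of which may be technical.

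Elastic fibres give arteries, lung and skin their recoil. A core of crosslinked elastin is laid onto microfibrils, which are bundles of fibrillin, and fibulins and elastin-binding glycoproteins guide elastin to the scaffold and to the lysyl oxidases that crosslink it. Microfibrils also hold latent TGF-beta through the latent TGF-beta binding proteins. In the kidney this matrix is found mainly in the walls of arteries and arterioles and in the interstitium around vessels, and fibroblasts, pericytes and vascular smooth muscle cells are its usual makers.

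From 1 to 7 days of obstruction 6 of the 8 tested members rose, 0 fell and 2 did not pass the test. The 6 that rose were elastin itself, the fibrillin Fbn1, the latent TGF-beta binding protein Ltbp2, the fibulins Fbln5 and Efemp2, and the elastin-binding glycoprotein Emilin1, with rises from 1.37-fold for Emilin1 to 5.88-fold for Eln. Of all 13991 tested genes, 18% rose in the same comparison (38.2% changed in either direction, at a Benjamini-Hochberg adjusted p under 0.05). The summed level of the members went from 96.5 to 136 FPKM at 1 day through 138 to 174 at 3 days to 240.0 to 338 at 7 days. FPKM is the count of a gene scaled by its length and by the total of the library, so it can be compared between genes.

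Of the members that rose 4 have a promoter in the RefSeq table of the rat assembly GRCr8, and these are shown because the genes are the ones whose levels are described below as moving upward from 1 to 7 days. Each is the 250 bases before the annotated start, read 5′ to 3′ on the strand of the gene. Capitals mark CCAAT and GGGCGG, the box bound by NF-Y and the GC box bound by Sp factors, on either strand. The stretches are chr3:133203391-133203640 on the minus strand for Fbn1, chr6:110257299-110257548 on the minus strand for Ltbp2, chr6:126742707-126742956 on the minus strand for Fbln5 and chr1:212211472-212211721 on the plus strand for Efemp2.
Fbn1: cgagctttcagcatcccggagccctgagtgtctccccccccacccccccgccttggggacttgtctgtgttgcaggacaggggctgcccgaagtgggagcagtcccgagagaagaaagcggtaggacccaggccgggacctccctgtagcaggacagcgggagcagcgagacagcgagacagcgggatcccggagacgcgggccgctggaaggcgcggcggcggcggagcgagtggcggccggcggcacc
Ltbp2: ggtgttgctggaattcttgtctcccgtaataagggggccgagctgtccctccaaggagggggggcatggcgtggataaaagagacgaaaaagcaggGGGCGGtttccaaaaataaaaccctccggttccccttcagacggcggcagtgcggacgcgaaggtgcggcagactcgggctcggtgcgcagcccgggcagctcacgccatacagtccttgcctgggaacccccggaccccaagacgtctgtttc
Fbln5: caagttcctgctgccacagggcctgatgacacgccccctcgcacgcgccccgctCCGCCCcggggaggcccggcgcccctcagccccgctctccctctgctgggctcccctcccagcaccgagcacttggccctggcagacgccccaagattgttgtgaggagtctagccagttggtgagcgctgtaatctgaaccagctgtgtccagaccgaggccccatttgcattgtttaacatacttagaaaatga
Efemp2: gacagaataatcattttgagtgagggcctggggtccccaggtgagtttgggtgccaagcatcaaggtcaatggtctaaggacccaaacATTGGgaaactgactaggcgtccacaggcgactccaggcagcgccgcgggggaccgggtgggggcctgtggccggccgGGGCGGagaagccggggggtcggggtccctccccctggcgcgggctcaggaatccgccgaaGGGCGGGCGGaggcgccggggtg

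Of the 10 members 6 were matched to this table. The matched stretches of the 4 genes were rich in G and C, at 71.2% for Fbn1, 61.6% for Ltbp2, 63.2% for Fbln5 and 68.0% for Efemp2, against a median of 51.2% over 33469 promoters of the same length. GGGCGG was found once each in Ltbp2 and Fbln5, with its first base at −154 and −196 from the start, and at −84, −23 and −19 in Efemp2, where the last 2 overlap. It is present in 30.5% of all promoters. CCAAT, present in 34.0%, was found in Efemp2 at −162, and Fbn1 held neither motif. TATAAA (12.9% of all promoters), the AP-1 motif TGANTCA (6.34%), the TEAD motif GGAATG (12.1%) and the CArG box of serum response factor (1.5%) were in none of the 6 matched members, each searched on both strands. These are matches of letters in a window and say nothing on whether a factor binds there.

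Eln encodes tropoelastin, the soluble monomer of the elastic core. Its level was 3.84, 2.84, 2.59, 1.19 and 2.40 FPKM in replicates 1 to 5 at 1 day, and 4.39, 2.77, 6.39, 4.54 and 4.14 at 3 days. It then stood at 8.30, 17.1, 19.4, 13.9 and 22.4 FPKM at 7 days. Every library of 7 days lay above every library of the earlier groups, while those of 1 and 3 days overlapped. Eln rose between 3 and 7 days by 1.80 ± 0.30 on the log2 scale (SE; edgeR, adjusted p = 0.00533), and between 1 and 7 days by 2.56 ± 0.32 (edgeR, adjusted p = 6.53e-05), from 2.57 ± 0.949 to 16.2 ± 5.42 FPKM (SD, n = 5 each). The difference of 0.76 ± 0.31 between 3 and 1 day did not pass the test (edgeR, adjusted p = 0.127). Its counts ran from 24 to 639 in these libraries, so the single low value of 1.19 FPKM rests on 24 counts.

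Fbn1 encodes fibrillin-1, the main structural protein of microfibrils, and is the gene altered in Marfan syndrome. It was at 4.18, 2.35, 3.62, 2.89 and 5.19 FPKM at 1 day and at 6.15, 4.26, 5.73, 4.64 and 4.53 at 3 days. At 7 days it was at 11.9, 17.5, 11.7, 14.1 and 15.7 FPKM. The libraries of 7 days again stood clear of all others. Fbn1 rose by 1.41 ± 0.18 between 3 and 7 days (log2, SE; edgeR, adjusted p = 0.00127) and by 1.86 ± 0.19 between 1 and 7 days (edgeR, adjusted p = 1.9e-05). Its difference between 3 and 1 day was 0.45 ± 0.18 (edgeR, adjusted p = 0.121), and it passed the test when replicate 5 of day 1 was left out (0.60, edgeR, adjusted p = 0.0353).

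Ltbp2 encodes a latent TGF-beta binding protein that sits on fibrillin microfibrils and, unlike its relatives, does not bind the latent growth factor. It is the weakest of the members that rose, at 1.17, 0.898, 1.36, 1.95 and 0.687 FPKM at 1 day and 2.90, 2.08, 1.98, 1.61 and 1.62 at 3 days. At 7 days it reached 5.44, 5.18, 7.81, 3.90 and 6.72 FPKM. No library of 7 days overlapped the earlier ones. The rise was 1.44 ± 0.26 between 3 and 7 days (log2, SE; edgeR, adjusted p = 0.00745) and 2.18 ± 0.27 between 1 and 7 days (edgeR, adjusted p = 6.56e-05). The difference of 0.74 ± 0.27 between 3 and 1 day was not called (edgeR, adjusted p = 0.0862) and was called without replicate 4 of day 1, the highest of its group (0.96, edgeR, adjusted p = 0.043), and by DESeq2 with all libraries (0.74, adjusted p = 0.0454).

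Fbln5 encodes fibulin-5, which binds elastin and lysyl oxidase-like 1 and is needed for elastic fibre assembly in mice. It was at 16.7, 10.6, 14.4, 12.0 and 20.9 FPKM at 1 day and already at 47.7, 45.0, 46.3, 52.1 and 27.5 at 3 days. These groups did not overlap, and the rise was 1.53 ± 0.24 (log2, SE), a 2.88-fold change (edgeR, adjusted p = 0.00203). At 7 days it was at 51.0, 125, 68.9, 67.8 and 66.0 FPKM, where the lowest library fell within the range of 3 days. The difference between 7 and 3 days, 0.72 ± 0.23, was not called (edgeR, adjusted p = 0.066), and it was called without replicate 1 of day 7, the lowest of its group (0.84, edgeR, adjusted p = 0.0404), or without replicate 5 of day 1 (0.72, edgeR, adjusted p = 0.0448). DESeq2 called it with all libraries (0.72, adjusted p = 0.0269). From 1 to 7 days Fbln5 rose by 2.25 ± 0.24 (edgeR, adjusted p = 2.84e-05).

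Efemp2 encodes fibulin-4, which carries lysyl oxidase to elastin and is needed for elastic fibre assembly in mice. Its libraries lay close together within each group, at 43.0, 35.2, 41.1, 43.7 and 36.6 FPKM at 1 day and 58.1, 57.4, 51.6, 63.5 and 50.6 at 3 days. At 7 days they were at 94.9, 91.4, 77.7, 67.5 and 102 FPKM. The 3 groups did not overlap one another. Efemp2 rose by 0.47 ± 0.11 from 1 to 3 days (log2, SE; edgeR, adjusted p = 0.0156), by 0.56 ± 0.11 from 3 to 7 days (edgeR, adjusted p = 0.0105) and by 1.03 ± 0.11 over both (edgeR, adjusted p = 2.57e-05).

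Emilin1 encodes an elastin-binding glycoprotein of blood vessels that restrains TGF-beta processing. With Efemp2 it was the most abundant member at 1 day, at 40.0 ± 6.55 FPKM against 39.9 ± 3.83 (SD, n = 5 each), and these did not differ beyond their spread. It stayed between 35.4 and 41.8 FPKM at 3 days, within the 31.3 to 49.2 of 1 day, and was at 53.3, 64.3, 43.4, 64.2 and 67.9 FPKM at 7 days. The libraries of 7 days lay above those of 3 days but overlapped those of 1 day. The rise was 0.54 ± 0.12 between 3 and 7 days (log2, SE; edgeR, adjusted p = 0.0206) and 0.46 ± 0.12 between 1 and 7 days (edgeR, adjusted p = 0.00932). The first of these lost its call without replicate 2 of day 3, replicate 4 of day 7 or replicate 5 of day 7 (edgeR, adjusted p = 0.055, 0.0519 and 0.0602).

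Fbln1 encodes fibulin-1, a calcium-binding glycoprotein of vessel walls and basement membranes that is also incorporated in elastic fibres. It was at 9.53, 6.36, 7.71, 6.46 and 21.2 FPKM at 1 day and at 13.7, 5.78, 9.46, 12.1 and 7.79 in the day 3 libraries. At 7 days it was at 15.0, 16.4, 15.0, 16.4 and 26.5 FPKM. Replicate 5 of day 1 stood apart from the other 4 libraries of its group and above all but 1 library of 7 days. With it, the difference between 7 and 1 day was 0.71 ± 0.31 (log2, SE) and was not called (edgeR, adjusted p = 0.0855). With all libraries kept, limma on log2 FPKM called it (0.85 to 0.92, adjusted p between 0.0288 and 0.0305), as did voom with quality weights (0.99, adjusted p = 0.00362) and edgeR with the replicate number as a block (0.80, adjusted p = 0.0354). Without replicate 5 of day 1 the difference was 1.13 (edgeR, adjusted p = 0.00201), and the difference between 7 and 3 days, 0.80 ± 0.31 with all libraries (edgeR, adjusted p = 0.116), was called as well (0.80, edgeR, adjusted p = 0.0303). Voom with quality weights called the latter with all libraries (0.85, limma, adjusted p = 0.0388). That library also held the highest summed urothelial markers of the groups of 1, 3 and 7 days, at 366 FPKM against at most 88.0 in the other 14. Its adipocyte and endothelial markers were the highest of these groups too, at 137 and 166 FPKM. Its fibroblast and leukocyte markers were the highest of day 1, at 199 and 59.6 FPKM. In replicate 5 of day 7, the library with 26.5 FPKM of Fbln1, urothelial markers were the lowest of that group, at 5.38 FPKM. Fibroblast markers were the highest there, at 622 FPKM. The part of these sums in the level of Fbln1 was not tested.

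Fbln2, encoding the large fibulin of developing heart valves and vessel walls, was scarce in the first 3 groups. Its mean level was 0.280 ± 0.266, 0.375 ± 0.176 and 0.516 ± 0.0910 FPKM after 1, 3 and 7 days (SD, n = 5 each), with 3 to 21 counts in a library. None of its early differences was called by edgeR with all libraries (0.85 ± 0.46 between 7 and 1 day; adjusted p = 0.153), while voom with quality weights called it higher at 7 than at 1 day (1.35, limma, adjusted p = 0.00482). Without replicate 2 of day 1, which had 0.753 FPKM from 19 counts against at most 0.204 in the rest of its group, it was called higher at 7 than at 1 day (1.55, edgeR, adjusted p = 0.00326) and at 3 than at 1 day (1.17, edgeR, adjusted p = 0.0452). Mfap5, encoding the small microfibril glycoprotein MAGP-2, had 66 counts in 9 of the 18 libraries and was not tested; its highest level in the groups of 1, 3 and 7 days was 0.235 FPKM. Mfap4, encoding a fibrinogen-related protein of elastic fibres, was listed at 0 in all 18 libraries. The fibroblast collagen gene Col1a2 was listed at 0 in all 18 too, beside 90.5 ± 14.5 FPKM of its partner chain Col1a1 at 7 days (SD, n = 5), so a listed 0 in this table cannot be read as a gene without transcripts.

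**Figure D1:**
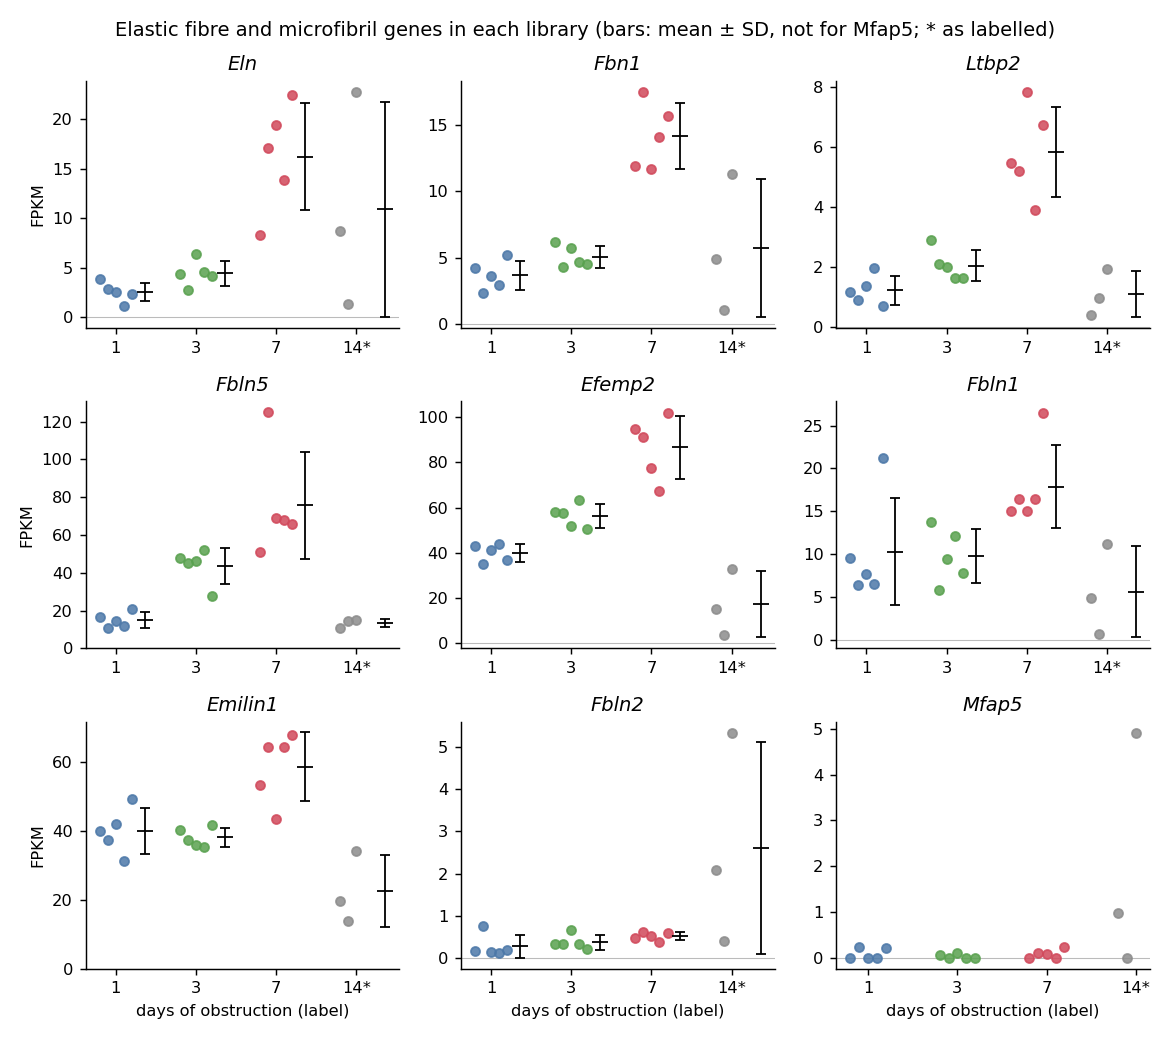
FPKM (y axis) of 9 members in each library, by labelled days of obstruction (x axis), with 1 point per library and the mean ± SD beside each group except for Mfap5. The 7 day libraries of Eln, Fbn1 and Ltbp2 lie above all libraries of 1 and 3 days, Fbln5 is already above its day 1 range at 3 days, and the 3 libraries labelled 14 days are spread widely for most members.

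By interval, 2 of 8 members rose from 1 to 3 days (Fbln5 and Efemp2), where 5.27% of all tested genes rose and 10.5% changed in either direction. From 3 to 7 days 5 of 8 rose (Eln, Fbn1, Ltbp2, Efemp2 and Emilin1), where 4.75% of all tested genes rose and 7.92% changed. The median log2 fold change of the tested members was 0.47 in the first interval and 0.76 in the second, against −0.02 and −0.01 over all genes. The libraries of 7 days lay wholly above those of 1 day for 5 members (Eln, Fbn1, Ltbp2, Fbln5 and Efemp2), a separation seen in 14.6% of tested genes. The intervals share the day 3 libraries, so their fold changes are not independent of each other.

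The shorter intervals depend on which libraries set the spread. In a fit over all 18 libraries, in which the libraries labelled 14 days add to the spread, the fold changes were the same to within 0.03 but fewer genes passed. From 1 to 3 days 1.16% of all genes then rose and Fbln5 kept its call (edgeR, adjusted p = 0.00475) while Efemp2 lost it (edgeR, adjusted p = 0.388). From 3 to 7 days 0.717% rose and Ltbp2 was the 1 member called (edgeR, adjusted p = 0.0472). The values for Fbn1, Eln, Emilin1 and Efemp2 were then adjusted p = 0.062, 0.0668, 0.081 and 0.296 (edgeR). From 1 to 7 days 12.3% rose, and the same 6 members were called.

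**Figure D2:**
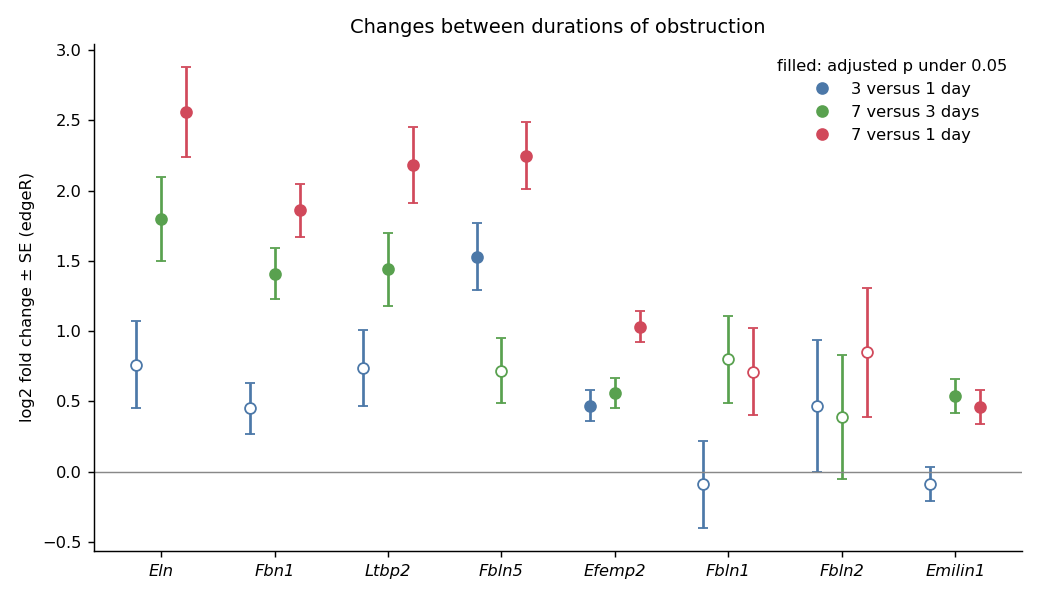
Log2 fold change ± SE (y axis) from the edgeR fit of the 15 libraries of 1, 3 and 7 days, for the 8 tested members (x axis) in 3 comparisons. Filled points passed an adjusted p of 0.05. The larger estimate lies between 1 and 3 days for Fbln5 and between 3 and 7 days for Eln, Fbn1 and Ltbp2. A contrast of both steps passed the test for no member.

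Whether a member changed by a different amount in the second interval than in the first was tested as a contrast of both steps. None of the 8 members passed (edgeR; 0.214% of all genes did), and 2 had an unadjusted p under 0.05. These were Fbn1, whose second step was larger by 0.96 ± 0.32 (log2, SE; edgeR, adjusted p = 0.204), and Emilin1, larger by 0.63 ± 0.22 (edgeR, adjusted p = 0.213). The contrast was −0.81 ± 0.39 for Fbln5 (edgeR, adjusted p = 0.389) and 1.04 ± 0.54 for Eln (edgeR, adjusted p = 0.416). No member can therefore be called early or late from its own steps alone.

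Members were next compared with each other inside each library, a test added after the data were seen that needs no scaling between libraries. Fbln5 was 4.0, 4.51, 3.98, 4.17 and 4.02 times as abundant as Fbn1 at 1 day, in FPKM. The ratio was 7.75, 10.6, 8.07, 11.2 and 6.09 at 3 days and 4.3, 7.14, 5.89, 4.81 and 4.2 at 7 days. It was higher in each of the 5 libraries of 3 days than in any of 1 day, and the groups of 3 and 7 days overlapped in 1 library on each side. Expressed as Fbn1 to Fbln5, the log2 ratio changed by −1.05 from 1 to 3 days (exact two-sided permutation test, p = 0.00794, adjusted p = 0.0476 over 42 tests) and by 0.72 from 3 to 7 days (exact permutation p = 0.0159, adjusted p = 0.0476). The smallest p that 5 libraries against 5 allow is 0.00794, so the adjusted values are close to the threshold by design, and they ran up to 0.0952 when single libraries were left out.

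Over the 21 pairs of 7 members, 6 ratios changed from 1 to 3 days and 8 from 3 to 7 days (exact permutation tests, each with adjusted p = 0.0476). These calls share a tied adjusted value just under the threshold, so they stand or fall together. The Fbn1 to Fbln5 ratio lost its call in 8 of 11 refits for the first interval and in 10 of 11 for the second. Each lost call came from leaving out 1 library, which raises the smallest p that the test allows. The count of lost calls therefore partly reflects the smaller groups. The log2 change itself stayed between −1.17 and −0.95 in the first interval and between 0.63 and 0.85 in the second. In the first interval Fbln5 rose against Emilin1 (log2 ratio change 1.61), Efemp2 (1.06), Fbn1 and Fbln1 (the ratio of Fbln1 to Fbln5 changed by −1.53). Fbn1 and Efemp2 rose against Emilin1, by 0.57 and 0.55. In the second interval Eln rose against Emilin1 (1.24), Efemp2 (1.23) and Fbln1 (0.94), and Fbn1 rose against Emilin1 (0.88), Efemp2 (0.87) and Fbln5. Ltbp2 rose against both Emilin1 and Efemp2, whose ratios to Ltbp2 changed by −0.90 and −0.89. The ratio of Eln to Fbn1 did not pass in either interval, at 0.32 and 0.36 on the log2 scale (exact permutation adjusted p = 0.49 and 0.385).

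**Figure D3:**
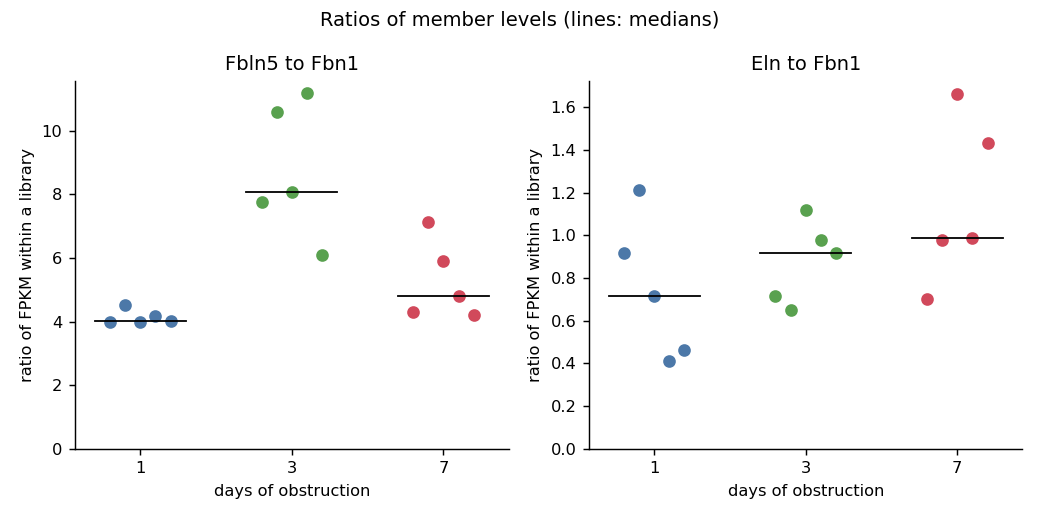
Ratio of FPKM within a library (y axis, from 0) for Fbln5 to Fbn1 and for Eln to Fbn1, by days of obstruction (x axis), with 1 point per library and a line at the median. The Fbln5 to Fbn1 ratio is near 4 in every library of 1 day, 6.09 to 11.2 at 3 days and 4.2 to 7.14 at 7 days, whereas the Eln to Fbn1 ratio overlaps between neighbouring groups.

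The order of abundance shifted with these changes. At 1 day Emilin1 and Efemp2 led, followed by Fbln5 at 14.9 ± 4.06 and Fbln1 at 10.2 ± 6.24 FPKM, then Fbn1, Eln and Ltbp2 at 3.65, 2.57 and 1.21 FPKM. At 7 days Efemp2 led at 86.7 ± 13.9 FPKM, followed by Fbln5 at 75.8 ± 28.6 and Emilin1 at 58.6 ± 10.1 (SD, n = 5 each). These 3 overlapped at each neighbouring step and lay above all others. Fbln1, Eln and Fbn1 followed at 17.9, 16.2 and 14.2 FPKM, overlapping in turn, and Ltbp2 at 5.81 was clear of both its neighbours.

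Markers of the cells that make this matrix changed over the same days. From 1 to 7 days 8 of 9 tested fibroblast markers rose and 0 fell. Fibroblast markers, of which 9 of 10 had a count and Col1a2 was at 0 throughout, summed to 111 to 199 FPKM at 1 day, 150.0 to 220.0 at 3 days and 387 to 622 at 7 days. Smooth muscle markers, 10 of 10 with a count, summed to 98.0 to 164, 108 to 273 and 258 to 464 FPKM. Between 1 and 7 days 3 of 8 tested rose and 0 fell, with a median log2 fold change of 0.15. Most of the larger sum was Acta2 and Tagln, whose means went from 36.9 to 115 and from 39.5 to 177 FPKM. Myh11, Cnn1, Lmod1 and Synpo2 changed little, with means from 8.96 to 7.78, 2.89 to 3.21, 0.896 to 0.921 and 1.65 to 1.59. In whole tissue a larger number of such cells and more RNA per cell cannot be told apart. Relative to Pdgfrb, the receptor of pericytes and fibroblasts, 3 members rose from 1 to 7 days within libraries, by 1.18 for Eln, 0.82 for Fbln5 and 0.50 for Fbn1 (log2; exact permutation adjusted p = 0.0159 each, over 14 tests), and Emilin1 changed by −0.95 (exact permutation adjusted p = 0.0159). Relative to the collagen gene Col1a1, none rose. Emilin1, Fbln1 and Efemp2 fell by 1.72, 1.34 and 1.16 on the log2 scale (exact permutation adjusted p = 0.0159 each), and Eln, Fbn1, Fbln5 and Ltbp2 differed by 0.41, −0.27, 0.05 and 0.04, none of which passed.

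Over the 15 libraries of 1, 3 and 7 days, Eln and Fbn1 varied together with a Pearson correlation of 0.92 (Spearman 0.86) of their log2 CPM, and Efemp2 and Ltbp2 did so with 0.92 (Spearman 0.91). Most of this lies in the difference between groups. After each group mean was taken away, the correlation was 0.44 for Eln with Fbn1 and 0.53 for Efemp2 with Ltbp2. It was higher for Fbn1 with Fbln1 (0.75) and with Fbln5 (0.71). Other pairs did not vary together, such as Eln with Efemp2 (−0.02) and Fbn1 with Ltbp2 (−0.16), and Emilin1 with Ltbp2 was at −0.53. The 15 points share groups and library scaling, so these values are descriptions. Among 10005 genes with a mean of at least 5 FPKM, those with the pattern most like Eln were Mmp2 (r = 0.954), Arhgef25 (0.944), Gpc3 (0.934), Col1a1 (0.928) and Pkdcc (0.923). For Fbn1 they were Olfml2b (0.984), Col3a1 (0.975), Pdgfrb (0.975), Nrp2 (0.973) and Plekhg2 (0.968). For Fbln5 they were Myl9 (0.945), Sfrp1 (0.943), C1qtnf2 (0.929), Cpz (0.929) and Mylk (0.925), of which Myl9 and Mylk are contractile genes. For Efemp2 they were Filip1l (0.976), Pofut2 (0.953), Clec11a (0.949), Ctgf (0.946) and Dync2li1 (0.944).

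Of the 5 lysyl oxidases, the enzymes that crosslink elastin, 4 rose between 1 and 7 days and 0 fell, where 18% of all genes rose, with a median log2 fold change of 0.99 against −0.01 for all genes. Lox went from 1.43 ± 0.218 to 6.89 ± 2.11 FPKM (2.17 ± 0.25, log2, SE; edgeR, adjusted p = 3.79e-05). Loxl1, the enzyme that fibulin-5 tethers to elastin, was far more abundant and went from 50.0 ± 10.7 through 42.0 ± 11.7 at 3 days to 106 ± 26.2 FPKM (0.99 ± 0.20; edgeR, adjusted p = 0.00176). Loxl2 rose by 1.32 ± 0.30 and Loxl3 by 0.90 ± 0.24 (edgeR, adjusted p = 0.00332 and 0.00934), and Loxl4 was at −0.86 ± 0.37 (edgeR, adjusted p = 0.0827). None of the 5 was called between 1 and 3 days, the interval in which Fbln5 rose.

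Among 23 tested relatives of the microfibril and fibulin families 7 rose and 2 fell, with a median of 0.24. The share that changed, 39.1%, is near the 38.2% of all genes, and 30.4% rose against 18%. Mfap2, encoding the microfibril glycoprotein MAGP-1, showed the largest rise, from 0.834 ± 0.421 through 2.56 ± 0.698 to 5.39 ± 1.41 FPKM (2.50 ± 0.32, log2, SE; edgeR, adjusted p = 7.88e-05), and it was called in both intervals. Adamtsl5, whose protein binds fibrillin microfibrils, rose by 1.68 ± 0.30 (edgeR, adjusted p = 0.000702). The hemicentin gene Hmcn1 rose by 1.57 ± 0.35 and Mmrn1, encoding a multimerin of platelets and endothelium, by 1.56 ± 0.40 (edgeR, adjusted p = 0.00284 and 0.0074), both from under 0.51 FPKM in every library of 1 day. Mfap3l and Mfap3, which carry the family name but encode membrane proteins, fell by 1.73 ± 0.23 and 0.81 ± 0.16 (edgeR, adjusted p = 0.000107 and 0.00162).

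Of 9 tested proteases that can cut elastin 4 rose and 2 fell, with a median of 1.40, so 66.7% changed against 38.2% of all genes. The gelatinase gene Mmp2 rose by 2.41 ± 0.25, the cysteine cathepsin genes Ctss and Ctsk by 1.88 ± 0.37 and 1.83 ± 0.20, and Mmp14, encoding the membrane protease that activates MMP-2, by 0.67 ± 0.10 (log2, SE; edgeR, adjusted p = 2.57e-05, 0.00133, 3.49e-05 and 0.000267). The lysosomal cathepsin genes Ctsl and Ctsb fell by 1.38 ± 0.18 and 0.93 ± 0.13 (edgeR, adjusted p = 8.78e-05 and 0.000157) from levels far above any member, at 3470.0 ± 651 and 1430.0 ± 253 FPKM at 1 day. Ctss is also made by leukocytes, whose 6 tested markers all rose between 1 and 7 days, from a sum of 32.9 to 59.6 FPKM to one of 63.2 to 189. Their part in the protease levels was not tested.

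Of 12 receptor genes for elastin, fibrillin and fibulins 3 rose and 2 fell, with a median of −0.03. The share that changed, 41.7%, is near the 38.2% of all genes. Itgb6 and Itgb5, beta chains that pair with the alpha v integrin, rose by 0.46 ± 0.16 and 0.36 ± 0.12 (log2, SE; edgeR, adjusted p = 0.0358 and 0.0235), and Glb1, the lysosomal galactosidase whose splice form is the elastin-binding protein, by 0.46 ± 0.15 (edgeR, adjusted p = 0.0287). The alpha v chain Itgav and its partner Itgb8 fell by 1.10 ± 0.21 and 2.06 ± 0.29 (edgeR, adjusted p = 0.00109 and 0.000143). Of 12 genes of the TGF-beta axis that microfibrils hold in store, 5 rose and 2 fell, with a median of 0.52, so 58.3% changed against the same 38.2%. The ligand Tgfb2 went from 2.40 ± 0.918 to 15.2 ± 5.30 FPKM (2.59 ± 0.34; edgeR, adjusted p = 8.78e-05). Tgfb1 rose by 0.95 ± 0.19, and the target genes Ccn2 and Tgfbi by 1.68 ± 0.22 and 1.01 ± 0.33 (edgeR, adjusted p = 0.00133, 0.000105 and 0.0242). The receptor Tgfbr2 and the SMAD corepressor Skil fell by 1.02 ± 0.21 and 1.01 ± 0.23 (edgeR, adjusted p = 0.0016 and 0.0038).

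**Figure D4:**
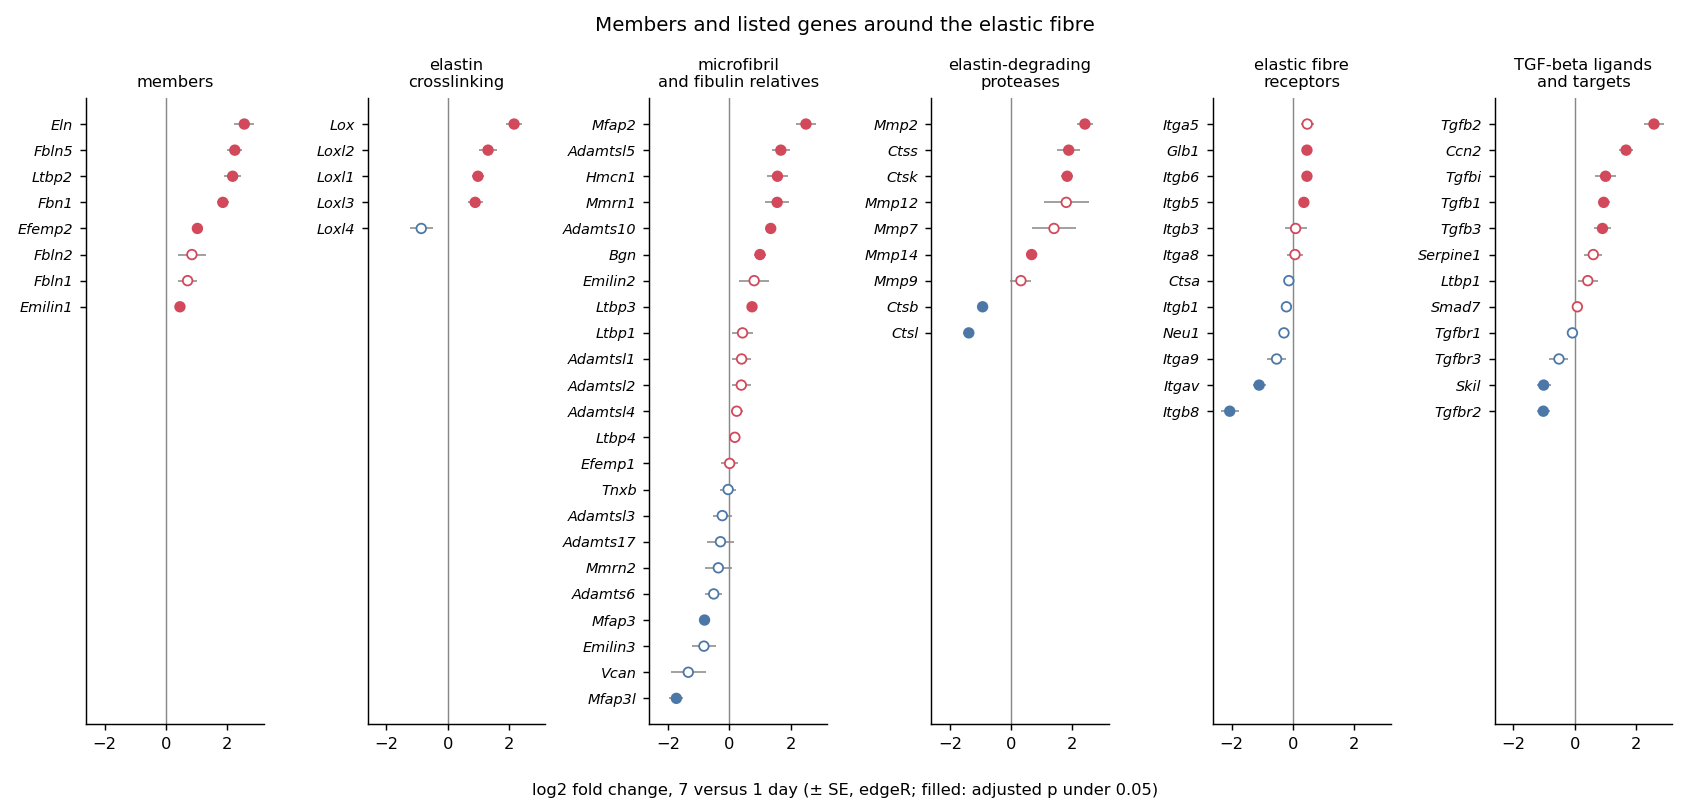
Log2 fold change ± SE between 7 and 1 day (x axis, edgeR) for the tested members and 5 lists of genes around the elastic fibre, 1 gene per line. Filled points passed an adjusted p of 0.05, red marks higher and blue lower values. All 8 tested members lie above 0, as do 4 of the 5 lysyl oxidases, while the receptor list lies on both sides.

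The 3 libraries labelled 14 days were unlike one another and unlike the earlier groups, so their values are given one by one. In replicates 1 to 3 the urothelial markers summed to 872, 7.88 and 932 FPKM and the adipocyte markers to 225, 43.3 and 2180.0, against at most 6.97 and 44.8 at 7 days. Nearly all of the urothelial sum in replicate 3 was Psca, at 924 FPKM. Upk1a, Upk1b, Upk2, Upk3a and Krt5 were high in replicate 1 alone of the 3, at 91.3, 28.2, 66.7, 75.9 and 16.8 FPKM. Smooth muscle markers summed to 947, 152 and 752 FPKM and fibroblast markers to 167, 42.0 and 393, with Lum and Postn at 0 in replicate 2. Kidney tubule markers summed to 966, 3540 and 828 FPKM, against at most 1920 in any library of the other groups. Markers of tubular injury summed to 50.3, 270.0 and 91.6 FPKM, where the lowest library of the other groups had 6460.0. Mitochondrial transcripts made up 14.4% to 27.36% of counts, and 7.11% to 13.57% elsewhere. The part of these differences in the values below was not tested, and duration and the makeup of the sampled tissue cannot be told apart in this group.

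**Figure D5:**
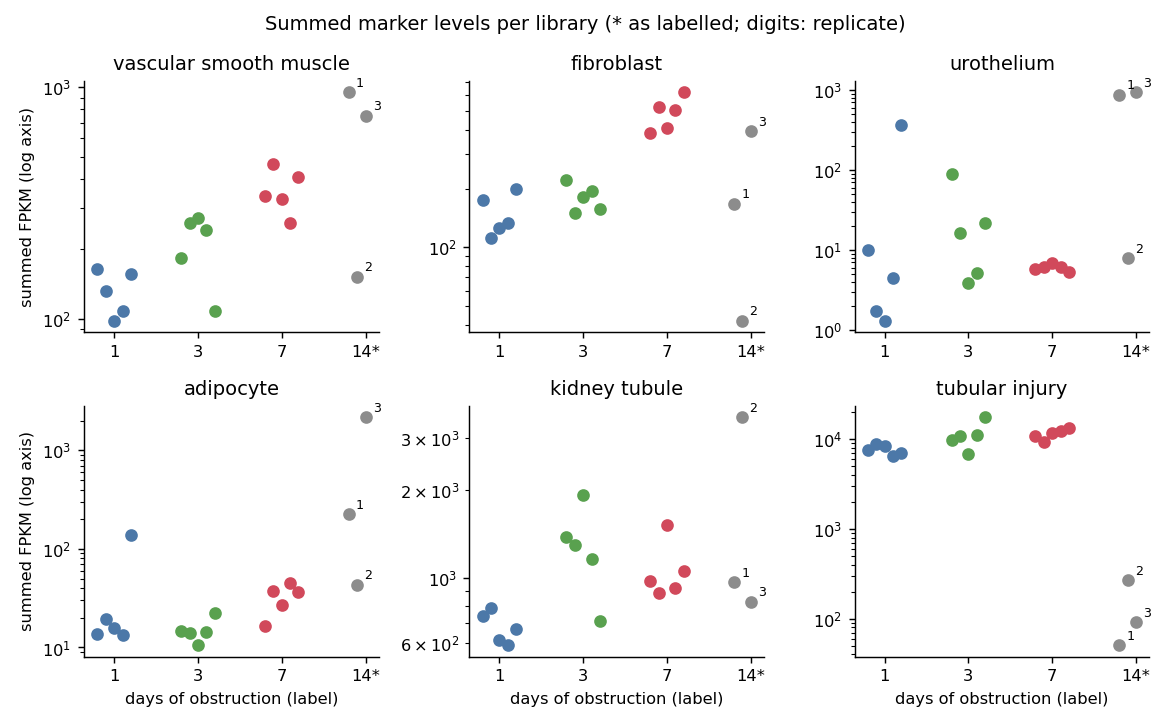
Summed FPKM of 6 marker lists (y axis, log scale) in each library by labelled days (x axis), with replicate numbers beside the libraries labelled 14 days. Fibroblast and smooth muscle sums rise from 1 to 7 days, the latter mainly through Acta2 and Tagln. Replicates 1 and 3 labelled 14 days have high urothelial sums, in replicate 3 nearly all from Psca. All 3 libraries with that label have low injury markers.

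Set against 7 days, 6 of 8 tested members were lower in these libraries and 1 was higher, among all genes of which 16.9% were lower and 21.4% higher (38.3% in either direction). Fbln5 was at 10.9, 14.5 and 14.9 FPKM, close together and below every library of 7 days (−2.16 ± 0.30, log2, SE; edgeR, adjusted p = 9.83e-05). Efemp2 was at 15.1, 3.73 and 32.6 FPKM (−2.14 ± 0.36; edgeR, adjusted p = 0.000342), Ltbp2 at 0.405, 0.970 and 1.92 (−2.12 ± 0.42; edgeR, adjusted p = 0.00112) and Emilin1 at 19.7, 13.8 and 34.1 (−1.11 ± 0.19; edgeR, adjusted p = 0.000337). Fbln1 and Fbn1 were also called lower (−1.48 ± 0.54 and −1.13 ± 0.41; edgeR, adjusted p = 0.0389 and 0.0417), but the fits without replicate 1 or replicate 2 labelled 14 days called neither (edgeR, adjusted p = 0.107 and 0.0813 for Fbln1, 0.12 and 0.0702 for Fbn1). Fbln1 also lost its call without replicates 4 or 5 of day 7, and Fbn1 without replicates 2, 4 or 5 of day 7, replicates 1 or 3 of day 1 or replicate 4 of day 3 (edgeR, adjusted p between 0.0501 and 0.0834). With the 2 groups fitted alone neither was called (edgeR, adjusted p = 0.117 for Fbln1 and 0.168 for Fbn1), nor was Fbln1 by voom (limma, adjusted p = 0.0537) or Fbn1 with no filter on low counts (edgeR, adjusted p = 0.0503). The libraries labelled 14 days lay wholly below those of 7 days for each of the 6 lower members, as they did for 26.6% of all tested genes.

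Eln was at 8.70, 1.36 and 22.7 FPKM in the libraries labelled 14 days, which spans the levels from 1 day to 7 days, and did not differ from 7 days beyond that spread (−0.40 ± 0.52; edgeR, adjusted p = 0.578). Fbln2 was the member that stood higher, at 2.08, 0.413 and 5.33 FPKM (2.51 ± 0.58; edgeR, adjusted p = 0.00332). Its difference was 1.59 without replicate 3 labelled 14 days (edgeR, adjusted p = 0.0481) and 3.00 without replicate 2 (edgeR, adjusted p = 0.000215), and 1.00 in limma on log2(FPKM + 1) (adjusted p = 0.0167). Mfap5, not tested, was at 0.972, 0 and 4.91 FPKM. Fbln2 and Mfap5 were both higher in replicates 1 and 3 and were at or below 0.413 FPKM in replicate 2. Replicates 1 and 3 also had the larger sums of adipocyte, urothelial, smooth muscle, fibroblast, endothelial and leukocyte markers. Kidney tubule and tubular injury markers were highest in replicate 2. A link of any of these sums with Fbln2 or Mfap5 was not tested.

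Set against 1 day, 2 members were higher (Fbln2 by 3.36 ± 0.61 and Eln by 2.17 ± 0.52) and 2 lower (Efemp2 by −1.10 ± 0.34 and Emilin1 by −0.64 ± 0.18), with edgeR adjusted p = 0.000817, 0.00539, 0.0218 and 0.0137. Of all genes 17.7% were higher, 14.3% lower and 32% changed. The call for Eln was lost without replicate 3 labelled 14 days (1.17, edgeR, adjusted p = 0.0897) and in the limma fits on log2 FPKM (1.24 to 1.40, adjusted p between 0.0735 and 0.0894). Those for Efemp2 and Emilin1 were lost without replicate 1 (edgeR, adjusted p = 0.07 and 0.0553). With the 2 groups fitted alone none of these 3 was called (edgeR, adjusted p = 0.0658 for Eln, 0.153 for Efemp2 and 0.0955 for Emilin1). Fbln2 kept its call in each of the alternatives that tested it, at 1.26 to 4.09. Without replicate 2 Fbn1 was called higher than at 1 day (1.21, edgeR, adjusted p = 0.00183), and without replicate 3 Fbln1 was called lower (−1.64, edgeR, adjusted p = 0.0425). The comparisons with 1 and with 7 days share these 3 libraries.

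In the deposited table, whose genome build is not given in the sources used here, Eln (ENSRNOG00000001469) lies on chromosome 12 from 24978483 to 25021863, Fbn1 (ENSRNOG00000007302) on chromosome 3 from 117569697 to 117766120 and Ltbp2 (ENSRNOG00000012094) on chromosome 6 from 108500112 to 108596569. Fbln5 (ENSRNOG00000050539) lies on chromosome 6 from 125644804 to 125723944, and Efemp2 (ENSRNOG00000020587) on chromosome 1 from 220854403 to 220861420. Emilin1 (ENSRNOG00000008246) lies on chromosome 6 from 26821255 to 26828972. They were not converted to the assembly of the promoters.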

How the data were processed

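Poly(A) RNA of rat renal parenchyma was sequenced, per the labels' protocols, and the submitters' processing notes name fastp 0.19.7 for read cleaning and HISAT2 2.0.4 for alignment. How reads were counted, whether strand was used, and which annotation and build served were not given in the sources used here. Overlapping genes therefore cannot be told apart. The deposited table gives read counts per gene and, per the file headers, FPKM. Libraries were grouped by their labels and held 5488540 to 12049915 counts.

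Genes with low counts were removed (filterByExpr of edgeR 4.0.16 in R 4.3.3, at a min.count of 10 and a min.total.count of 15). Counts were scaled by TMM and tested by quasi-likelihood in edgeR, with Benjamini-Hochberg adjustment over all tested genes and a threshold of 0.05. Comparisons of 1, 3 and 7 days used their 15 libraries (13991 genes), because the libraries labelled 14 days vary far more. Comparisons with those used all 18 (14511 genes). The SE is the log2 fold change over the square root of F. Ratios of FPKM within libraries were tested by exact two-sided permutation and were added after the data were seen. Alternatives covered RLE, no filter, DESeq2 1.42.0, voom with quality weights and limma 3.58.1 on log2(FPKM + 1) or log2(FPKM + 0.1). They also covered an FPKM filter (at least 1 in at least 3 libraries), no mitochondrial genes, other library sets, a replicate block and each library left out. No 2 libraries were identical. The edgeR test was checked on simulated counts for 7 versus 1 day.

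The members, lists and tests were chosen with earlier results of these data known. The text names all members, up to 4 called genes per list in its majority direction and 2 in the other by 7 versus 1 day, and the 5 genes most like each of 4 members by Pearson r of log2 CPM (prior count 2). Of the listed genes Thsd4 and Pecam1 were not matched by name, and Ccn2 was matched as Ctgf.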

Additional observations from a re-analysis of the deposited data

Results flagged for a closer look

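Of 27 groups of 5 libraries tested 6 held a library far from the other 4 of its group, by the gap to its neighbour as a share of the range; chance gives about 1 in 20. Fbln1 was highest in replicate 5 of day 1, at 21.2 FPKM against 9.53 in the next library, and in replicate 5 of day 7, at 26.5 against 16.4. Fbln5 was lowest in replicate 5 of day 3, at 27.5 FPKM against 45.0 in the next, a library whose smooth muscle markers were also the lowest of that group (108.0 FPKM). Fbln5 was highest in replicate 2 of day 7, at 125.0 FPKM against 68.9, where the smooth muscle markers were the highest of that group (464.0 FPKM). The 2 orders did not match throughout. At 7 days the lowest Fbln5, 51.0 FPKM in replicate 1, stood beside a smooth muscle sum of 338 FPKM. The lowest sum of that group, 258 FPKM in replicate 4, stood beside 67.8 FPKM of Fbln5. Replicate 5 of day 3 was also the lowest of its group in endothelial and kidney tubule markers, at 49.7 and 710 FPKM. By group means, Acta2 and Tagln are the largest parts of the smooth muscle sums, and a link of any of these sums with Fbln5 was not tested. Fbln2 was highest in replicate 2 of day 1, at 0.753 FPKM from 19 counts, and in replicate 3 of day 3, at 0.676 FPKM from 21 counts.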

How the results depend on the processing

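Of 1266 refits of a member and comparison 1186 kept direction and side of the threshold, 33 lost the call, 19 gained it and 28 changed sign. With all 18 libraries 1 member was called in each of 3 versus 1 day and 7 versus 3 days, with 330 and 152 genes (1463 and 1108 as reported), with 0 for the contrast of intervals (30 as reported). DESeq2 called 2216, 1963 and 325 genes in these, and voom 3217 for 3 versus 1 day and 129 for the contrast, where the FPKM filter gave 13. Fits on 2 groups alone called 3153 genes for 14 versus 7 days (5560 as reported) and 1628 for 14 versus 1 day (4646), there with 1 member, and the FPKM filter gave 2 members. Leaving out single libraries gave 775 to 2016 genes in the first interval, 324 to 1772 in the second, 1 to 84 for the contrast and 2 to 5 members for 14 versus 1 day. The sign changed for values that were not called. For Fbln1 at 3 versus 1 day these were 0.03 with log2(FPKM + 0.1), 0.02 with the other FPKM fits and 0.14 with voom, and −0.23 to 0.33 without single libraries. For 14 versus 1 day they were −0.13, −0.12 and −0.1 for Fbln5 and −0.27, −0.11 and −0.77 for Ltbp2, and without single libraries −0.13 to 0.25 and −0.44 to 0.46, with −0.09 to 1.21 for Fbn1. Eln ranged from −1.39 to 0.11 for 14 versus 7 days, and Fbln2 from −0.79 to 0.61 in the contrast, where 1 fit gave 0.03. Against Col1a1, Fbln5 ranged from −0.12 to 0.23 and Ltbp2 from −0.11 to 0.22 without single libraries, with −0.05 for Ltbp2 at log2(FPKM + 0.1). The causes of these changes were not tested. With the replicate block the contrast called 4 genes, Fbln1 rose by 0.8 for 7 versus 1 day (edgeR, adjusted p = 0.0354), Fbln1 was at 0.03 for 3 versus 1 day and Ltbp2 at −0.07 for 14 versus 1 day; it changed no call of a member in 3 versus 1 or 7 versus 3 days. Replicate numbers did not pair the libraries: deviations of same-numbered libraries correlated by −0.26 to 0.3 over 15 pairs, and 2 of 15 libraries were nearest to their own number. Counting precision limits Fbln2, with 3 to 21 counts a library up to 7 days, and Mfap5.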
